A study of Mus musculus with 9 samples.

Results

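Metallothioneins, ferritin and antioxidant enzymes guard cells against free metal ions and reactive oxygen. The 10 genes described here are Mt1, Mt2 and Mt3 (metallothioneins), Fth1 and Ftl1 (ferritin chains), and Sod1, Prdx1, Prdx2, Prdx5 and Gpx4 (enzymes that remove superoxide and peroxides). They were chosen by symbol from the 23528 symbols of the deposited table, and each has 1 row there. They were followed in 9 single cells from the paraventricular nucleus, a neuroendocrine centre of the mouse hypothalamus. All 9 cells form 1 group: C57Bl6/N mice of 21 to 28 days, with no treatment given in the labels, each cell labelled as expressing secretagogin, a calcium-binding protein. The labels do not say from how many animals they came. The 9 cells therefore count as 1 sample without replicates, and no difference between cells is given a p-value.

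Metallothioneins are small cysteine-rich proteins that bind zinc and copper. Cells induce Mt1 and Mt2 through the metal-sensing transcription factor MTF1 and through glucocorticoids, whereas Mt3 is mainly a brain form. Ferritin is a shell of heavy chains (Fth1), which oxidise iron, and light chains (Ftl1), which help to store it, and iron regulatory proteins control the translation of both mRNAs. Sod1 converts superoxide to hydrogen peroxide in the cytosol, peroxiredoxins reduce peroxides with electrons from thioredoxin, and Gpx4 is a selenoprotein that reduces lipid peroxides and protects against ferroptosis. In brain, oligodendrocytes are known for their high ferritin and iron content, and astrocytes and ependymal cells for their metallothioneins.

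The sequences below show the control elements that background knowledge ties to these families. The first set holds 120-base stretches around the RefSeq starts of Mt1 and Mt2 (GRCm38.p6, chromosome 8, plus strand), 90 bases before and 30 after the start, because these neighbours were the metallothioneins found together. Capitals mark the core of the metal response element, searched on both strands as TGCACNC or TGCGCNC. Both matches in the Mt2 stretch lie on the opposite strand, and the 2 cores do not overlap there or in Mt1. The Mt1 stretch lies at chr8:94178999-94179118 and the Mt2 stretch at chr8:94172528-94172647.
Mt1: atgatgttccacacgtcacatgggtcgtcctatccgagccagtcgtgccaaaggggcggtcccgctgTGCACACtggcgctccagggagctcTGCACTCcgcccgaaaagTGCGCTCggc
Mt2: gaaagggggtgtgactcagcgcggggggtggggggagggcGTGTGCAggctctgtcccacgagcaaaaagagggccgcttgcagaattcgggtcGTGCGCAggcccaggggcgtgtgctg

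Over the whole RefSeq window of 250 bases before to 50 after the start, Mt1 held 3 matches, Mt2 held 4 and Mt3 held 1. Of all 32851 such windows, 25.7% held at least 1 match, 1.97% held at least 3 and 0.517% held at least 4. All 10 genes had a window, 14 windows in total, and none of the 7 other genes had a match. The antioxidant response element core, searched on both strands as TGAC and GC with any 3 bases between them, was matched once each in the windows of Mt2, Prdx1 and Sod1, and in 12.4% of all windows. In Mt2 and Prdx1 the matched letters were TGACTCAGC, which also contain the AP-1 sequence, and in Mt2 they overlapped no metal response match. These matches describe letters, not binding.

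The second set shows the iron-responsive element in the leader of the ferritin mRNAs, since it is the feature the 2 ferritin genes share. It was searched in the GENCODE M21 transcripts on the sense strand as CAGTG with a C 6 bases before it. Capitals mark the 6-base loop that iron regulatory proteins bind.
Fth1: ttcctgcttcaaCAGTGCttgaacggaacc
Ftl1: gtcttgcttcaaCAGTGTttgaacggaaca

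The loop began at base 99 of the first-numbered Fth1 transcript and at base 90 of the first-numbered Ftl1 transcript. The 2 sites of 30 bases had 26 identical bases, and in both the 5 bases before the loop were the reverse complement of the 5 bases after it. Fth1 and Ftl1 were the only ones of the 10 genes with the motif. Of 49564 coding transcripts whose leader is at least as long as the motif, 8.47% held the letters, and 0.0424% held them with the 5-base stem.

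The cells differed in depth and purity, which touches every result. The gene molecules ran from 1021 in cell 1 and 3393 in cell 6 to 26466 in cell 5, with a median of 9573. The 9 column names end in 9 different codes of lane and position. A count of 0 was given a limit of 3 molecules, which per 10000 gene molecules is 29.4, 8.84 and 4.19 in cells 1, 6 and 7, and 1.13 in the deepest cell. Cell 9 is the only one from another lane, with 614 spike-in molecules against 1962 to 2184 in the other cells. The mitochondrial share of the molecules ran from 4.31% in cell 9 to 34.2% in cell 6. Every interval printed here is an exact 95% interval for the molecules counted, and it holds nothing for error before counting.

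Each cell type list was summed in every cell. Neuron markers ran from 2 molecules in cell 1 to 234 in cell 5, with at least 2 of 12 markers detected in every cell. Cell 5 also held 498 molecules of oligodendrocyte markers, with all 10 markers detected, including Trf (101), Mbp (35) and Mog (26), against 0 to 2 in the other cells. In cell 8 ependymal and tanycyte markers summed to 77 molecules, from 6 of the 8 markers in the table, led by Tmem212 (25), Ccdc153 (24) and Rarres2 (20), with Rax and Col23a1 at 0, against 0 to 2 in the other cells. It also held 36 of astrocyte markers, 5 of 10, led by Gja1 (10) and Aqp4 (8), against 0 to 7 elsewhere. Gfap and Aldh1l1 were at 0 in every cell. Slc1a2, Aldoc and Agt were at 0 in cell 8 but found in other cells, Agt with 5 molecules in cell 4. Cells 4 and 7 held 136 and 66 molecules of endothelial markers, 10 and 8 of 10, against 0 to 5 elsewhere. Cell 4 alone held 2507 molecules of blood markers, from 4 of 7 markers. It alone also held mural markers, but only 9 molecules from 2 of 6 markers. These were Rgs5 (8) and Vtn (1), with Kcnj8, Pdgfrb, Cspg4 and Acta2 at 0. No microglial or macrophage marker was found in any cell. Cells 4, 5, 7 and 8 are called mixed-marker cells below. The part that these other cell types played in the results was not tested.

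**Figure D1:**
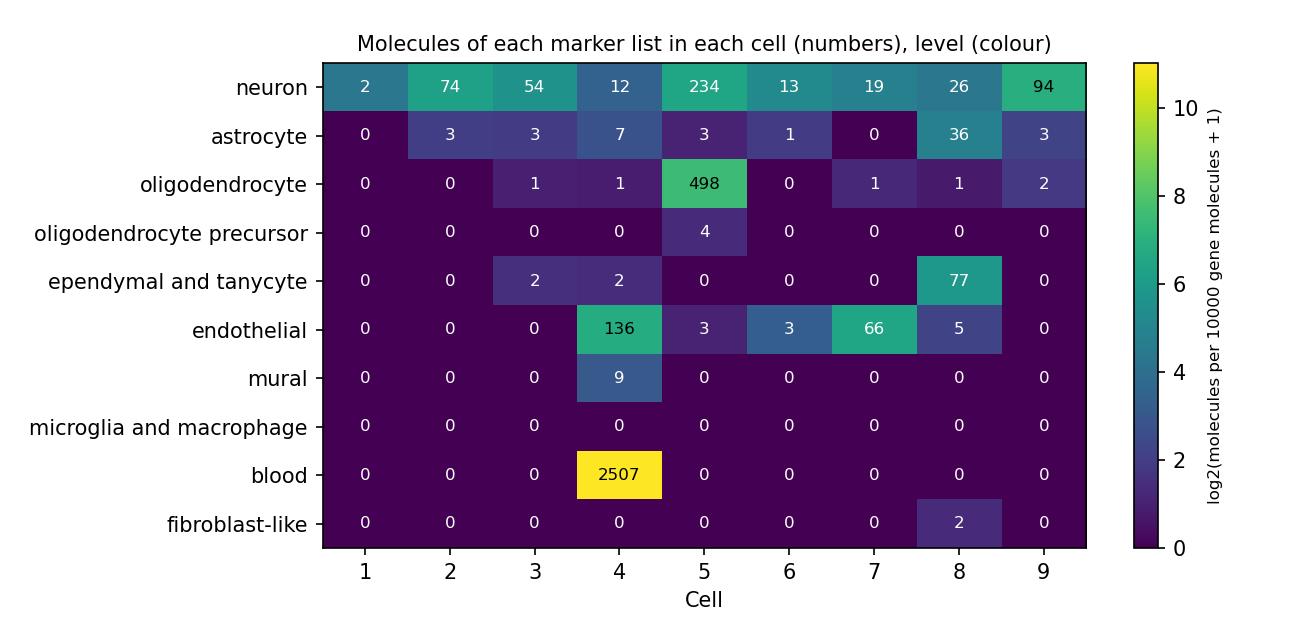
Marker lists (rows) in the 9 cells (columns); numbers are molecules and colour is log2(molecules per 10000 gene molecules + 1). Oligodendrocyte markers stand out in cell 5 (498 molecules), ependymal markers in cell 8 (77), endothelial markers in cells 4 and 7 (136 and 66) and blood markers in cell 4 (2507).

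Together the 10 genes gave 504 molecules, a median of 31.9 per 10000 over the 9 cells. Their summed level was highest in cell 8 at 93.4 (interval 77.6 to 111) and in cell 5 at 77.8 (interval 67.6 to 89.2), and lowest in cell 6, with 1 molecule. Scaled by spike-ins in place of gene molecules, cell 5 (188) stood above cell 8 (113). Of the 10, 7 were detected in at least 5 cells, against 7.00% of all symbols. Most symbols have few molecules. Among symbols with at least 10 molecules the share was 72.0%, and of the 9 members with that many, 7 (77.8%) were so, which is near the background. The count of 7 was 4 when detection required 2 molecules, and 2 when every cell was thinned to 1021 molecules in 1 random draw.

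**Figure D2:**
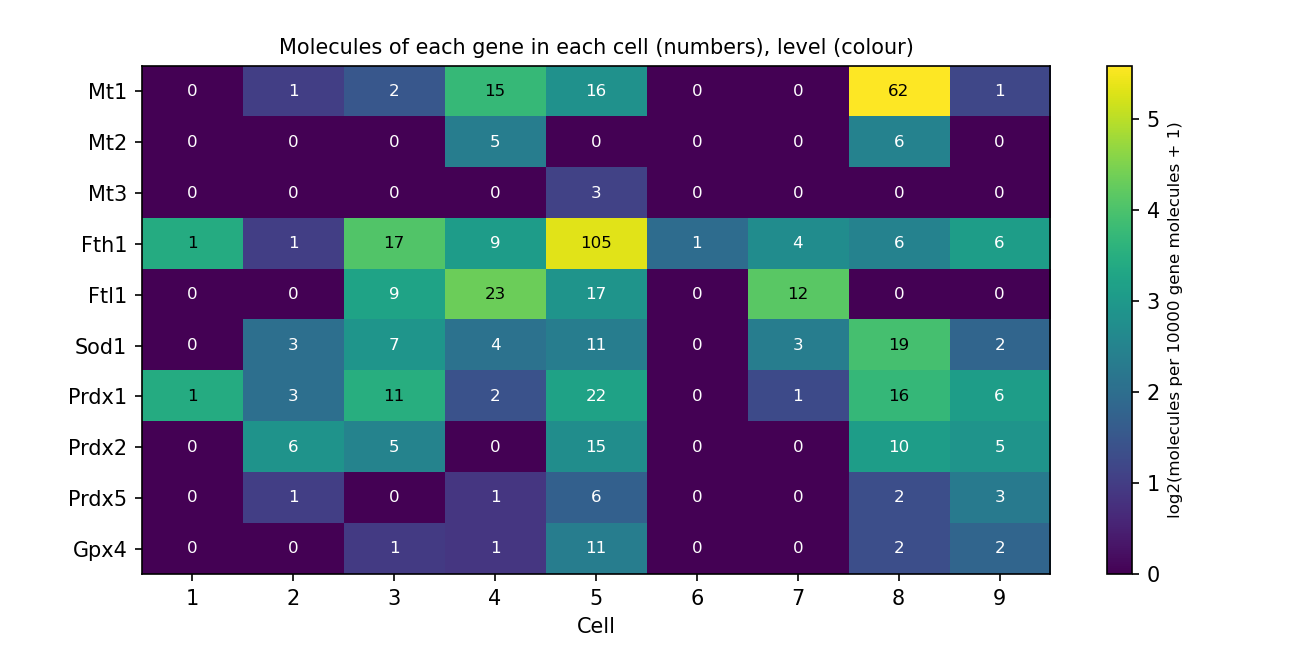
The 10 genes (rows) in the 9 cells (columns); numbers are molecules and colour is log2(molecules per 10000 gene molecules + 1). Mt1 is highest in cell 8 (62 molecules) and Fth1 in cell 5 (105), Ftl1 is found in cells 3, 4, 5 and 7, and cells 1 and 6 hold 2 and 1 molecules in all.

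Metallothionein mRNA was concentrated in a few cells, all with markers of another cell type. Mt1 (ENSMUSG00000031765.8, chromosome 8 at 94179082 to 94180327, plus strand, GRCm38/mm10) gave 0, 1, 2, 15, 16, 0, 0, 62 and 1 molecules from cell 1 to cell 9. It gave 15 or more molecules in cells 4, 5 and 8 and at most 2 elsewhere. The level in cell 8 was 47.1 per 10000 (interval 36.1 to 60.3). Cell 4 followed at 12.5 (interval 6.98 to 20.6) and cell 5 at 6.05 (interval 3.46 to 9.82). Without globin molecules in its total, which then was 8386 in place of 12024, cell 4 was at 17.9 (interval 10.0 to 29.5). That drop is larger than the 2507 blood-marker molecules, which count only the largest row of each symbol. The interval of cell 8 overlapped those of no cell but cell 1, whose 0 carries an upper end of 36.1. Cell 5 is the deepest cell, and its interval overlapped those of all 6 cells with at most 2 molecules.

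Cell 8 is the cell with ependymal and astrocyte markers, cell 5 the one with oligodendrocyte markers and cell 4 the one with blood and endothelial markers. Cell 7, which shares the endothelial markers, had no metallothionein molecule, with an upper end of 5.15 per 10000, below the lower end of 6.98 for Mt1 in cell 4. Scaled by spike-ins, the metallothionein sum kept the order of cells 8, 4 and 5, at 62.2, 20.3 and 17.4, against 51.6, 16.6 and 7.18. Mt1 also lay more in 1 cell than other genes did. Cell 8 took 67.5% of the Mt1 levels summed over cells, against a median of 28.8% for the top cell of the 250 genes with at least 45 molecules (quartiles 23.8 and 36.2%).

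Mt2 (ENSMUSG00000031762.7, chromosome 8 at 94172664 to 94173568, plus strand), the neighbour of Mt1, was detected in cells 4 and 8, with 5 and 6 molecules. Both cells were among the 3 with the most Mt1. Mt2 gave 25% of the Mt1 and Mt2 molecules of cell 4 (interval 8.66 to 49.1%) and 8.82% of those of cell 8 (interval 3.31 to 18.2%), and these intervals overlap. In cell 5, 16 Mt1 molecules stood beside no Mt2, where the interval of the Mt2 share reaches 20.6%. Mt3 (ENSMUSG00000031760.9, chromosome 8 at 94152607 to 94154146, plus strand) was detected in cell 5, with 3 molecules. Its limit elsewhere for a count of 0 was 2.28 per 10000 in cell 8 and 2.50 in cell 4, above the 1.13 measured in cell 5, so a difference was not detectable at this depth.

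Of the 111 metallothionein molecules, 107 (96.4%) lay in the 4 mixed-marker cells, which held 64.4% of all gene molecules. The other 5 cells had 4 molecules in all. Their median was 1.04 per 10000, against 1.28 over the 9 cells.

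**Figure D3:**
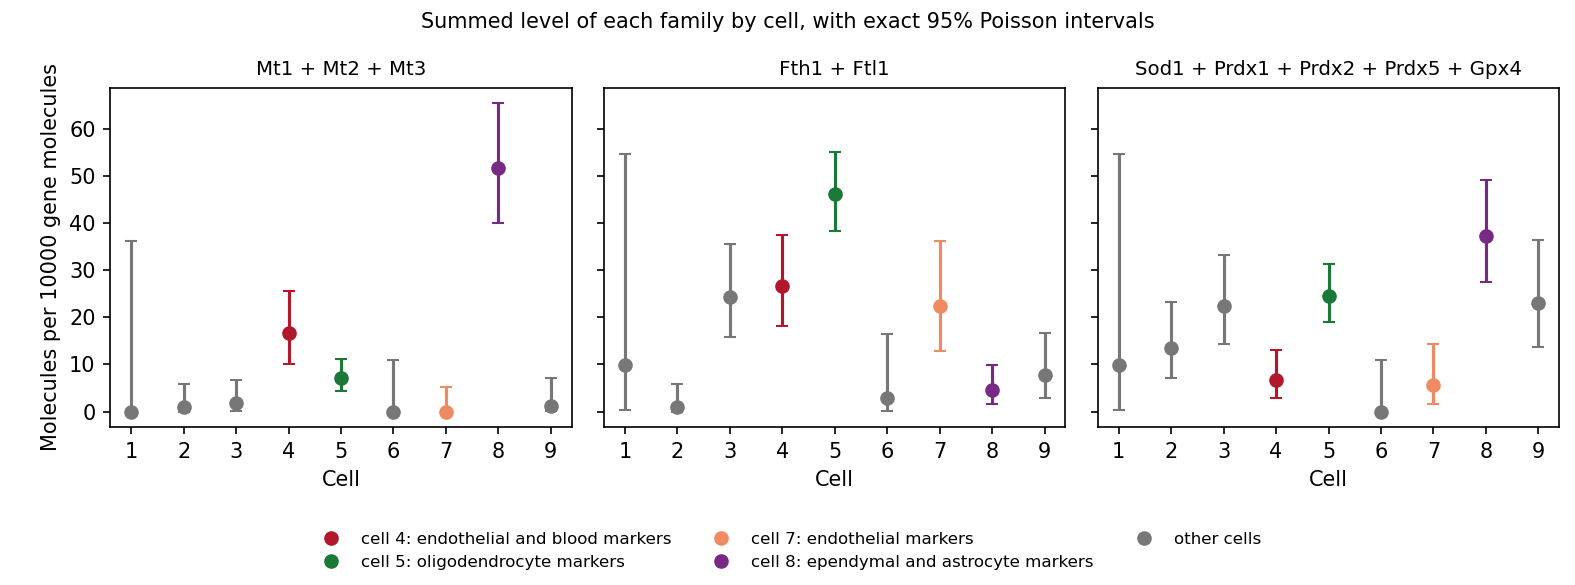
Summed molecules per 10000 gene molecules (vertical axes) of the metallothioneins, ferritins and antioxidant enzymes in each cell, with exact 95% Poisson intervals; colours mark cells with markers of other cell types. Metallothionein peaks in cell 8 (51.6), ferritin in cell 5 (46.1), and the enzymes have their highest point in cell 8 (37.2).

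Ferritin was found in every cell and was highest in the cell with oligodendrocyte markers. Fth1 (ENSMUSG00000024661.7, chromosome 19 at 9980598 to 9985098, plus strand), the heavy chain, gave 1, 1, 17, 9, 105, 1, 4, 6 and 6 molecules from cell 1 to cell 9. Its level in cell 5 was 39.7 per 10000 (interval 32.4 to 48.0), above that of cell 3 at 15.8 (interval 9.23 to 25.4). Only cell 1, where 1 molecule has an interval of 0.248 to 54.6, overlapped cell 5. Cell 2 had 9573 gene molecules and 1 Fth1 molecule, or 1.04 per 10000 (interval 0.0264 to 5.82), below the interval of cell 3.

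Ftl1 (ENSMUSG00000050708.16, chromosome 7 at 45457944 to 45459884, minus strand), the light chain, followed another pattern. From cell 1 to cell 9 the molecules were 0, 0, 9, 23, 17, 0, 12, 0 and 0, so that 5 cells had none. The levels per 10000 were 19.1 in cell 4 (interval 12.1 to 28.7) and 16.8 in cell 7 (interval 8.66 to 29.3). Without globin molecules in its total, cell 4 was at 27.4 (interval 17.4 to 41.2). Cells 3 and 5 followed at 8.39 and 6.42 (intervals 3.84 to 15.9 and 3.74 to 10.3). Cells 4 and 7 share the endothelial markers. The upper ends of the 0 counts in cells 2, 8 and 9 were 3.85, 2.80 and 4.71 per 10000, below the intervals of cells 4 and 7.

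The mix of the 2 chains therefore differed between cells by more than counting error. Ftl1 gave 71.9% of the ferritin molecules of cell 4 (interval 53.3 to 86.3%) and 75% of those of cell 7 (interval 47.6 to 92.7%). It gave 34.6% in cell 3 (interval 17.2 to 55.7%) and 13.9% in cell 5 (interval 8.33 to 21.4%), whose interval lies below those of cells 4 and 7. In cells 8 and 9, with 6 Fth1 molecules each, the Ftl1 share was 0, with an upper end of 45.9%. Over all cells Ftl1 gave 61 of 211 ferritin molecules. Both genes have processed copies elsewhere in the genome, and the sources used here do not say how reads matching several copies were counted, so their levels are uncertain to that extent.

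**Figure D4:**
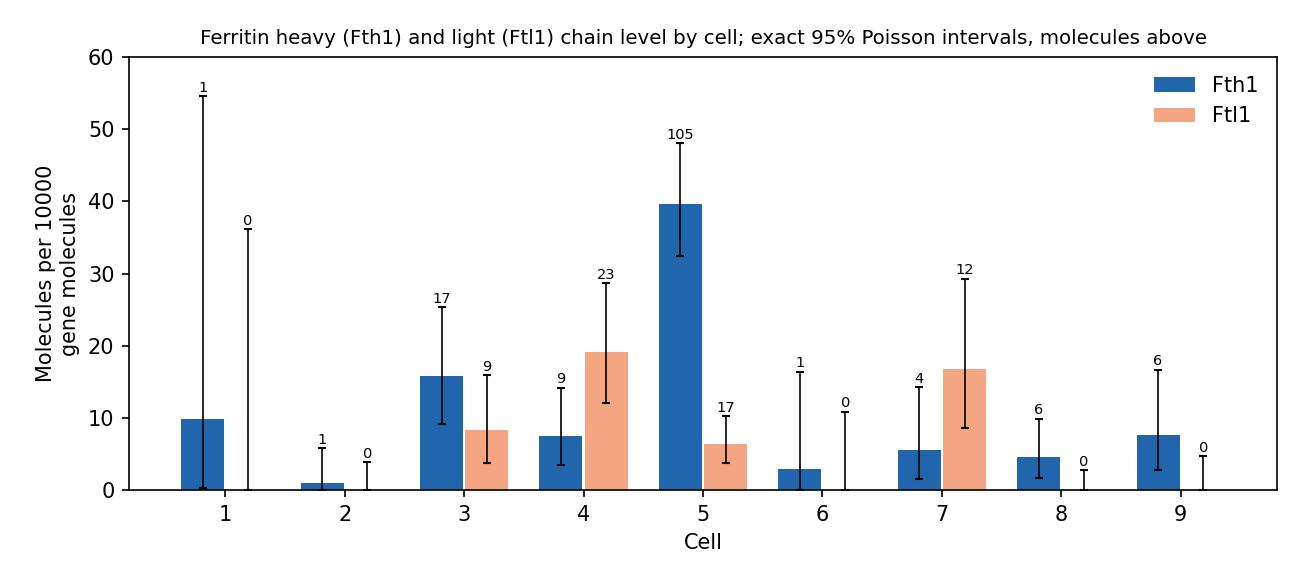
Molecules per 10000 gene molecules of Fth1 and Ftl1 in each cell (bars) with exact 95% Poisson intervals and the molecules above each bar. Fth1 leads in cell 5 (105 against 17 molecules) and Ftl1 leads in cells 4 (23 against 9) and 7 (12 against 4).

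Of the ferritin molecules 83.4% lay in the mixed-marker cells. Cell 3, with 26 ferritin molecules (24.2 per 10000, interval 15.8 to 35.5), carried at most 3 molecules of any non-neuronal list. The intervals of cells 4 and 7 (26.6 and 22.3 per 10000) overlapped that of cell 3. Without globin molecules in its total, cell 4 was at 38.2 (interval 26.1 to 53.9), which overlaps cells 3, 5 and 7. Scaled by spike-ins in place of gene molecules, cell 5 was still highest, at 112 on the same scale. Cell 9, with only 614 spike-in molecules, moved from 7.67 to 19.5.

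The antioxidant enzymes were spread more evenly, and cells with few of them included both cells with endothelial markers. Their summed level was 37.2 per 10000 in cell 8 (interval 27.5 to 49.2). Cells 5, 9, 3 and 2 followed at 24.6, 23.0, 22.4 and 13.6, and each of these intervals overlaps that of the cell before it. It was 6.65 in cell 4 (interval 2.87 to 13.1) and 5.59 in cell 7 (interval 1.52 to 14.3), and cells 1 and 6 had 1 and 0 molecules. The intervals of cells 3, 5, 8 and 9 lie above that of cell 4, but those of cells 3 and 9 do so only while globin is part of the total of cell 4. Of the 182 enzyme molecules, 69.2% lay in the mixed-marker cells, close to their 64.4% of all molecules. Without globin molecules the level of cell 4 was 9.54 (interval 4.12 to 18.8), which overlaps cells 3 and 9 and lies just below cell 5 (lower end 19.0). Scaled by spike-ins, cells 5 and 9 (59.4 and 58.5) stood above cell 8 (44.8). Cell 9, from another lane, had 614 spike-in molecules against 1962 to 2184 in the others, which raises its level on this scale.

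Sod1 (ENSMUSG00000022982.10, chromosome 16 at 90220754 to 90226329, plus strand), the copper-zinc superoxide dismutase, gave 0, 3, 7, 4, 11, 0, 3, 19 and 2 molecules from cell 1 to cell 9. Its level was 14.4 per 10000 in cell 8 (interval 8.68 to 22.5) and 2.56 to 6.52 in the other 6 cells that held it. Cell 8 lay above the intervals of cells 4 and 5, whose upper ends were 8.52 and 7.44, and overlapped those of the others. Without globin in its total the upper end of cell 4 was 12.2, which overlaps cell 8.

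Prdx1 (ENSMUSG00000028691.12, chromosome 4 at 116685544 to 116700822, plus strand) gave 1, 3, 11, 2, 22, 0, 1, 16 and 6 molecules from cell 1 to cell 9. Cells 8, 3 and 5, with 11 or more molecules each, stood at 12.1 (interval 6.94 to 19.7), 10.3 and 8.31 per 10000, and the single molecule of cell 1 is 9.79 (interval 0.248 to 54.6). Cells 4 and 7 stood at 1.66 (interval 0.201 to 6.01) and 1.4. Prdx1 was the member with the highest median level, 7.67 per 10000, and it was the least concentrated of the 5 members with at least 45 molecules, with 22.3% of its summed levels in the top cell.

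Prdx2 (ENSMUSG00000005161.15, chromosome 8 at 84969587 to 84974834, plus strand) was either near 1 level or not found. From cell 1 to cell 9 the molecules were 0, 6, 5, 0, 15, 0, 0, 10 and 5. The 5 cells with Prdx2 stood at 4.66 to 7.59 per 10000, with overlapping intervals. In cell 4 the upper end for 0 was 3.07 per 10000, below the lower ends of cells 5 and 8 (3.17 and 3.64) and above those of cells 2, 3 and 9. Without globin in the total of cell 4 that end was 4.4, above the lower ends of all 5 cells with Prdx2. In cells 1, 6 and 7 the upper ends were 36.1, 10.9 and 5.15, so a lower level was not detectable there. The 5 cells with Prdx2 include the 4 with the most neuron-marker molecules (cells 2, 3, 5 and 9), and cell 8 with 26.

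Prdx5 (ENSMUSG00000024953.17, chromosome 19 at 6906697 to 6910106, minus strand), a peroxiredoxin of mitochondria, peroxisomes and cytosol, gave 0, 1, 0, 1, 6, 0, 0, 2 and 3 molecules in the same order. Gpx4 (ENSMUSG00000075706.10, chromosome 10 at 80047166 to 80056439, plus strand) gave 0, 0, 1, 1, 11, 0, 0, 2 and 2. Gpx4 was 4.16 per 10000 in cell 5 (interval 2.07 to 7.44), and the intervals of all other cells overlapped it. With 13 and 17 molecules in all, the intervals of all cells overlapped in both genes, and differences between cells were not tested. A processed copy of Gpx4 is annotated, with the same limit as for ferritin.

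By mean level over the 9 cells without length, Fth1 led, followed by Mt1, Prdx1, Ftl1 and Sod1. Genes were also compared per length, by that mean divided by the longest coding transcript. This division put Mt1 before Fth1, and Sod1 before Prdx1 and Ftl1. Whether the molecule counts rise with transcript length was not tested, so the order per kb rests on that assumption. On this scale Mt1 led with 7.14 per 10000 per kb, followed by Fth1 with 7.04, Sod1 with 6.64 and Ftl1 with 5.82. Prdx1 (2.63), Prdx2 (2.11), Mt2 (1.89), Gpx4 (1.12), Prdx5 (0.836) and Mt3 (0.235) were lower. The spread over cells was wide: in 8 of the 10 genes the SD over cells was larger than the mean, and in Mt1 it was 14.1 per 10000 per kb, so neighbours in this order do not differ beyond their spread. Single cells set the first places: without cell 8 the Mt1 mean was 2.62 per 10000 per kb, in 4th place, and without cell 5 the Fth1 mean was 4.6, also in 4th place. Without cell 4, Fth1 (7.29) and Sod1 (6.82) stood before Mt1 (6.6). With the first-numbered transcript as the length, Prdx1 moved from 5th to 3rd place at 9.5, as that transcript has 0.636 kb and the longest has 2.29 kb. By median level without length, Prdx1 and Fth1 led and Mt1 was 5th.

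The 10 genes did not form 1 block. Over the 45 pairs the Spearman correlation of levels over the 9 cells had a median of 0.279, from -0.467 for Ftl1 and Prdx2 to 0.795 for Prdx2 and Prdx5. Mt1 and Mt2 had 0.743 with 2 cells holding both. The column headers give all cells but cell 9 the same lane, the cells differ in depth, and the values are a description. Among 161 genes with at least 45 molecules in at least 7 cells, the pattern most like the metallothionein sum was that of Rps16 (0.936), Son (0.919) and Rpl38 (0.851). For ferritin it was Tmsb4x (0.800) and the rows Rps15a-ps4 (0.762) and Oaz1-ps (0.728), and for the enzymes Tuba1a (0.867), Fau (0.862) and Ndufa3 (0.845). These are the highest of 161 values, whose medians were 0.288 for metallothionein, 0.0333 for ferritin and 0.410 for the enzymes. The metallothionein sum was 0 in cells 1, 6 and 7, of which 1 and 6 are the shallow cells. Tied zeros at low depth therefore enter its ranking. For Ftl1 alone, Ptma reached 0.880, and for Fth1 alone the highest was Rpl13a at 0.628. Mt1 alone gave the same 3 genes as the metallothionein sum, and for Mt2 and Mt3 the ranking rests on 2 cells and 1 cell.

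Other genes of the same pathways were found as follows. Of 128 further redox and metal genes on 7 lists, 19 (14.8%) reached 5 or more cells. Another 78 were found in 1 to 4 cells and 31 in no cell. The share was 7.00% over all symbols, most of which have few molecules, and 72.0% among symbols with at least 10 molecules. The 128 genes were not split by molecules, so the 14.8% and the counts per list below are descriptions only. Of the 23 iron handling genes in the table, 2 reached 5 or more cells (Pcbp1, an iron chaperone that loads ferritin, with 17 molecules, and Ncoa4, the receptor for autophagy of ferritin, with 13), 16 in 1 to 4 and 5 in none. Cell 5, the highest in Fth1, held 101 molecules of Trf, the transferrin gene, which had none in the other 8 cells and is also on the oligodendrocyte list. The iron list was at 51.4 per 10000 in cell 5 and at 2.56 to 19.6 elsewhere.

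Of the 24 genes of metal and zinc handling, 4 were in at least 5 cells, 13 in 1 to 4 and 7 in none. The copper chaperone genes Atox1 and Cox17 led with 37 molecules in 6 cells and 35 in 5 cells, and the zinc transporter genes Slc39a6 and Slc39a7 had 14 and 16. In cell 8, highest in Mt1, the list was at 14.4 per 10000, near the median of 14 per 10000.

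Among the 13 other dismutases, catalase and peroxidases, 2 were in at least 5 cells, 7 in 1 to 4 and 4 in none. Gpx1 had 20 molecules and Prdx4 17, each in 6 cells, and Prdx6 had 9 of its 16 in cell 8. Of the 18 thioredoxin and glutaredoxin genes, 2 were in at least 5 cells, 11 in 1 to 4 and 5 in none. Txn1, the electron donor of the peroxiredoxins, had 49 molecules in 7 cells, from 3 in cells 3 and 4 to 14 in cell 8.

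Of the 21 glutathione genes, 4 were in at least 5 cells, 13 in 1 to 4 and 4 in none. Gstp1, a glutathione transferase, led with 69 molecules, or 0, 5, 21, 2, 17, 0, 0, 10 and 14 from cell 1 to cell 9. It had 0 molecules in cells 1, 6 and 7 and 2 in cell 4, the cells without Prdx2. The limits for a count of 0 were 29.4, 8.84 and 4.19 per 10000 in cells 1, 6 and 7. The mean Gstp1 level over the 9 cells was 6.48, so the zeros of cells 1 and 6 do not show a lower level. Of the 16 genes of the NRF2 system, 3 were in at least 5 cells, 11 in 1 to 4 and 2 in none, and the list was highest in cell 9 at 42.2 per 10000, with 14 molecules of Nfe2l1 and 11 of Sqstm1. Of the 13 selenoprotein genes in the table, 2 were in at least 5 cells, 7 in 1 to 4 and 4 in none. Selk had 41 molecules in 8 cells. Sepp1, which encodes the secreted selenium carrier, had 13, 8 and 1 molecules in cells 4, 7 and 5, so it lay mainly in the 2 cells with endothelial markers and the most Ftl1 per 10000.

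**Figure D5:**
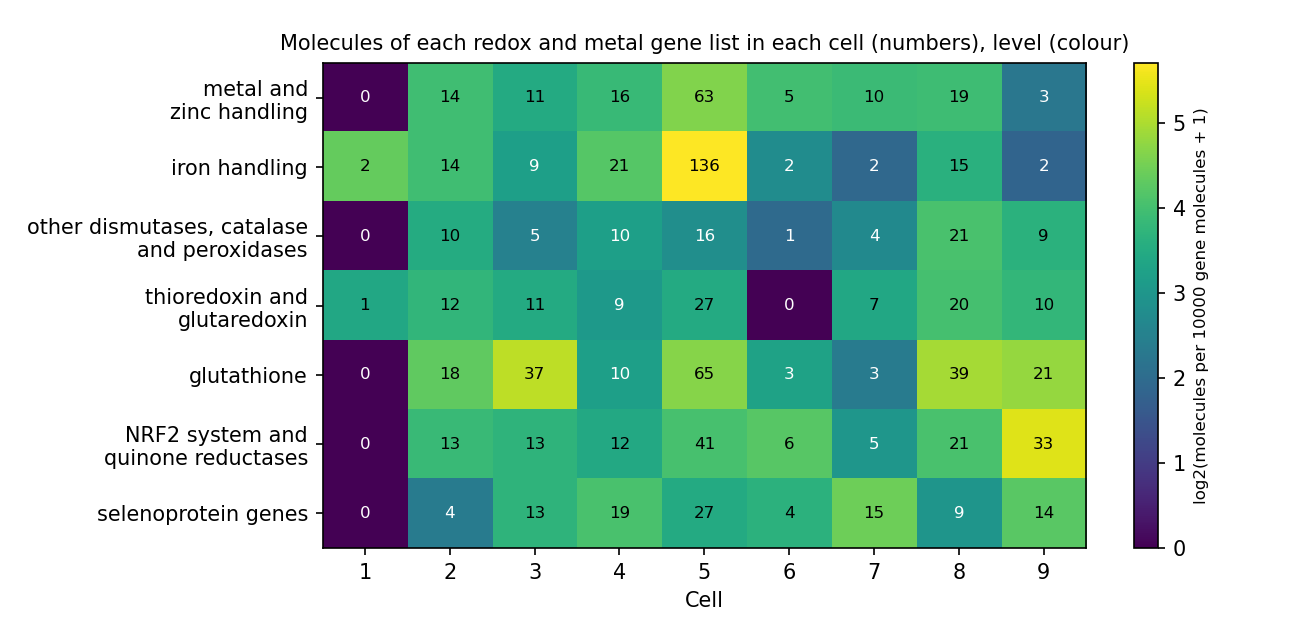
The 7 lists of further redox and metal genes (rows) in the 9 cells (columns); numbers are molecules and colour is log2(molecules per 10000 gene molecules + 1). Iron handling is highest in cell 5 (136 molecules, of which 101 are Trf) and the NRF2 list in cell 9 (33 molecules).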

How the data were processed

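Poly(A) RNA of single cells was captured on a Fluidigm C1 chip, with spike-in RNAs, template switching, 21 cycles of PCR and Tn5 fragmentation, per the labels' protocols. The submitters' processing notes name Bowtie and the mm10 genome. The authors deposited whole-number counts, called molecules here, for 24378 gene rows and 92 spike-in rows in 9 cells (1021 to 26466 gene molecules each). How duplicates were collapsed and the strand setting are not given in the sources used here. Columns were matched to cells by the cell number in their names, and 0 were left unassigned.

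Levels are molecules per 10000 gene molecules without spike-ins. Intervals are exact Poisson (levels) and Clopper-Pearson (shares) at 95%, and a count of 0 was given 3 molecules. Cells are not replicates and no animal is named, so no difference was tested, and Dixon's ratio served only to pick extreme cells for description. Doublets were not called in 9 cells, and 10 marker lists were summed instead. The likeness ranking was also run on simulated data, with planted genes drawn from each family's own levels. That run checks the calculation only and gives no support to the genes named here. Members and lists were chosen with earlier results of these data known. Named genes are the members, up to 4 genes of each pathway list by mean level, leading markers and, for likeness, the 3 genes of highest Spearman correlation. Positions and transcripts came from GENCODE M21 (10 of 10 members matched) and promoter windows from RefSeq (GRCm38.p6). Alternatives were other totals, detection limits, thinning, rows per symbol and left-out cells. Tables were computed with pandas 2.3.3, scipy 1.17.1 and numpy 2.4.6 in Python 3.11.15, and plots were drawn with matplotlib 3.10.9.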

Additional observations from a re-analysis of the deposited data

Results flagged for a closer look

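Of 21 measures checked over the 9 cells (the 10 genes, their 3 families, their sum and 7 pathway lists), 8 had an extreme cell whose distance to its neighbour, as a share of the whole range, passed 0.493, the 95% limit of Dixon's test for 9 values. Chance picks about 1 in 20 where values are normal. Sparse counts at unequal depth are not, cells are not replicates and the measures share cells and genes, so the number of 8 is a description and not a test. Cell 8 stood apart in Mt1 at 47.1 per 10000, in the metallothionein sum at 51.6 and in Sod1 at 14.4, and it carries ependymal and astrocyte markers. Cell 5 stood apart in Fth1 at 39.7, in the iron handling list at 51.4 and in Mt3 at 1.13, and it carries oligodendrocyte markers. The Mt3 value is 3 molecules in the deepest cell against 0 in all others, and a gene seen in 1 cell always passes this limit. Cell 9 stood apart in the NRF2 list at 42.2, and it is the only cell of its lane. Cell 6 stood apart in the thioredoxin and glutaredoxin list at 0, and at 3393 gene molecules the limit for that count was 8.84 per 10000.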

How the results depend on the processing

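The number of members detected in at least 5 of 9 cells was 7. It was 4 with detection at 2 molecules, 4 at 3 molecules, 2 after thinning every cell to 1021 molecules and 2 in 8 cells thinned to 3393 molecules (1 random draw each). Leaving out 1 cell at a time, with 5 cells still required, gave 4 to 7, and it was 4 without cell 5, 8 or 9. The family medians moved by less than 1 SD over cells in every alternative run, but the SD is wide. Without the shallow cells 1 and 6 the medians rose from 9.79 to 22.3 per 10000 for ferritin, from 13.6 to 22.4 for the enzymes and from 31.9 to 48.5 for all 10 genes. Without cells 4, 5, 7 and 8 they were 7.67, 13.6 and 19.6. Scaling by spike-ins gave 15.4, 12 and 48.5. Leaving out 1 cell at a time gave 1.16 to 1.57 for metallothionein, 8.73 to 16.1 for ferritin (16.1 without cell 2, 6, 8 or 9, and 15.0 without cell 1) and 11.7 to 18.0 for the enzymes. Leaving out globin molecules, and cells 1, 4, 5, 6, 7 and 8 together, were chosen after seeing the data. Each member has 1 row, so the alternatives on numbered loci change nothing by construction. No paired analysis was possible because all cells belong to 1 group. In cells 1 and 6 a count of 0 carries little information.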
